A study of Mus musculus with 4 samples.

Results

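The genes described here are the mouse Rnf genes, which encode proteins named for a RING finger. A gene was included when a probe set on the array carried its symbol and no other, and the symbol was Rnf followed by a digit. Of 19938 genes with such a probe set, 80 were Rnf genes. Where a gene had more than 1 probe set, the one with the highest mean over the 4 arrays stood for it.

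The arrays measured RNA recovered by immunoprecipitation from early erythroid progenitors. These were taken from fetal livers of C57BL/6 mice at E14.5, depleted of mature blood cells and of Sca-1, CD16/32, CD41 or CD34 positive cells, and sorted for c-kit with low CD71. All 4 lysates came from this 1 cell type and strain, with no other treatment or allele named. The IgG group held 2 arrays of RNA bound by control rabbit IgG, and the RBP group held 2 arrays of RNA bound by an antibody to an RNA-binding protein. The labels leave that protein unnamed; it is taken to be ZFP36L2, a zinc finger protein that binds AU-rich mRNAs, from knowledge of the study, and this was not checked here. The question was which transcripts the RBP antibody recovered beyond IgG. No label says that replicate arrays hold separate preparations of cells, so p-values cover only array-to-array spread, which may be technical.

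A RING finger is a small zinc-binding fold that holds a ubiquitin-conjugating E2 enzyme close to a substrate, so that ubiquitin passes from the enzyme to a lysine of the substrate. Rnf proteins share this fold and little else. Some sit on chromatin, some span the membranes of the endoplasmic reticulum or the endosome, and the RING-between-RING class takes ubiquitin onto a cysteine of its own before handing it on. Ubiquitin ligases are known to act in red cell formation through the turnover of cytokine receptors, the cell cycle and the clearance of organelles.

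More Rnf mRNAs were higher than lower in the RBP immunoprecipitates. Of the 80 genes, 35 were higher, 2 were lower and 43 did not pass, at an adjusted p under 0.05 in limma, with the Benjamini-Hochberg procedure applied over all genes. Of all genes tested, 23.8% were higher and 6.54% were lower. The median Rnf difference, RBP minus IgG on the log2 scale, was 0.59, beside -0.02 over all genes. The median Rnf level was 6.82 and 6.74 with IgG and 7.60 and 7.46 with the RBP antibody. Both RBP arrays lay above both IgG arrays for 50 Rnf genes, as for 37.4% of all genes, and below them for 10, as for 36.2% of all genes. At least a 2-fold increase with no overlap between the groups was seen for 15, as for 13.5% of all genes. An exact two-sided permutation test of 2 arrays against 2 cannot give a p below 0.333, so the calls rest on the variance that limma shares across genes. In such bulk samples fewer cells of a type and less RNA per cell cannot be told apart, and with no array of the lysate itself used here, neither can the amount of an mRNA and its recovery by the antibody.

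The direction went with the level of the gene. The 95th percentile of the levels of olfactory, vomeronasal and taste receptor genes, here the chemosensory genes, was 5.35 and served as the background level. Of the 69 Rnf genes with a mean level above it, 35 were higher, as were 36.4% of all such genes, and 2 were lower, as were 6.56% of them. The median difference of the 69 was 0.71, beside 0.40 over all genes above that level. None of the 11 at or below it was called by limma, beside 0.780% of all such genes higher and 6.50% lower, and Rnf182 alone of them had an unadjusted p under 0.05 (-0.51 ± 0.20; limma, adjusted p = 0.101). Among genes with a mean level from 7 to 8, 13 of 14 Rnf genes were higher, beside 47.1% of all genes. From 8 to 9 it was 8 of 14, beside 56.4%, and from 9 to 10 it was 5 of 9, beside 57.8%. At 10 or more it was 2 of 5, beside 47.2%. At lower levels it was 3 of 14 from 5 to 6, beside 4.06%, and 4 of 15 from 6 to 7, beside 23.4%. The median difference of all genes also went with level, at -0.23 from 5 to 6, 0.78 from 8 to 9 and 0.56 at 10 or more. Across the 80 genes, which share these arrays, the difference and the mean level had a Pearson r of 0.53 and a Spearman rho of 0.55, given as a description. Probe sets also differ in how strongly they respond, so the level is not a measure of mRNA amount between genes.

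**Figure D1:**
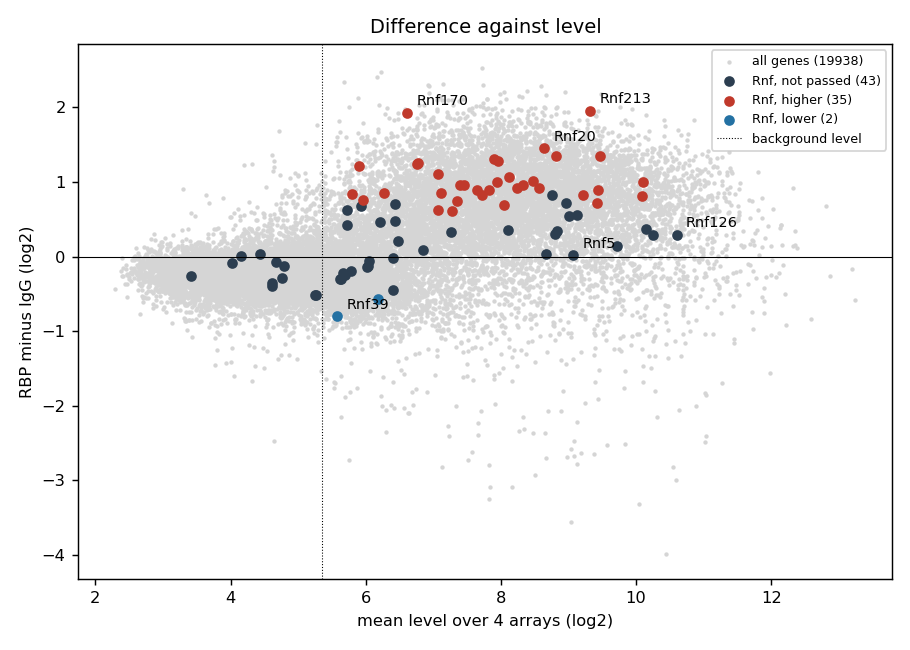
The difference between RBP and IgG arrays (log2, vertical) is plotted against the mean level over the 4 arrays (log2, horizontal) for all 19938 genes in grey and the 80 Rnf genes in colour by call, with the background level of 5.35 dotted. All 35 Rnf genes called higher lie to the right of that line, and the 11 Rnf genes to its left lie near or under 0.

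The count changed with the scaling and when an RBP array was left out. With quantile normalization 15 Rnf genes were higher, with each array centred on the chemosensory genes 50 were, and with the trend of the difference on level removed 7 were, beside 11.1%, 35.7% and 5.63% of all genes. The first 2 of these settings moved the median of all genes to 0.16 and 0.29, and the Rnf median was then 0.34 and 0.90. With the trend removed the Rnf median was 0.15. Without RBP array 1 there were 8 higher, and without RBP array 2 there were 10, beside 8.65% and 10.3% of all genes. A call said to be lost without either RBP array was lost each time, with array 1 and with array 2 left out. In those fits the spread within a group comes from the IgG pair alone. The Rnf median was 0.51 without RBP array 1 and 0.58 without RBP array 2, beside 0.59 in the reported fit. A lost call there therefore need not mean a smaller difference. Rnf213 and Rnf170 were called higher in the reported fit and in all 11 alternatives. Rnf20, Rnf40, Rnf41, Rnf169 and Rnf214 missed the threshold only with the trend removed, and Rnf138 only without RBP array 2 (limma, adjusted p = 0.0514). None of the 37 called Rnf genes changed direction in any alternative, except that Rnf144a came to -0.0049 with the trend removed.

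**Figure D2:**
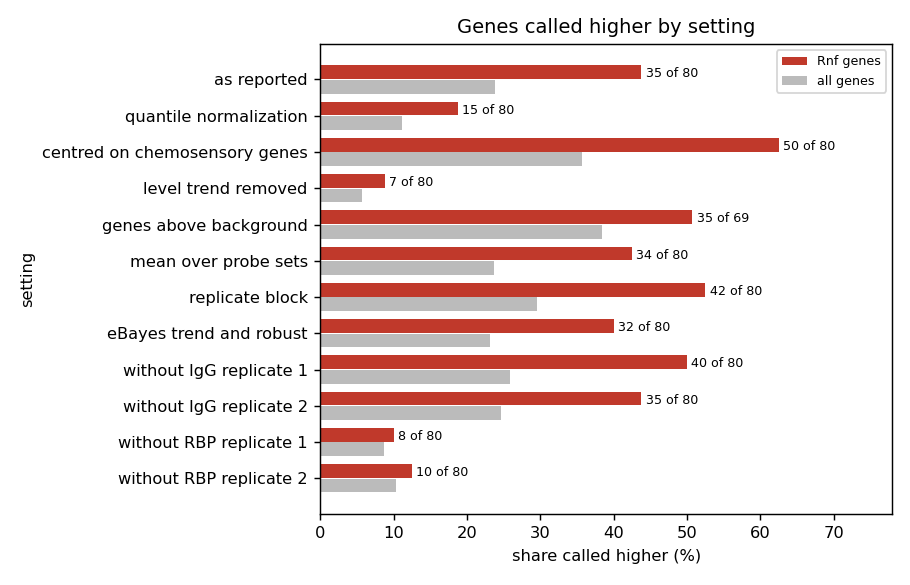
Bars show the share of Rnf genes (red) and of all genes (grey) called higher under the reported fit and 11 alternatives, with the count of Rnf genes beside each bar. The Rnf share was 35 of 80 as reported and ran from 7 of 80 with the level trend removed to 50 of 80 after centring on chemosensory genes.

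Rnf213 had the largest difference. It encodes a giant protein that joins a RING finger to an AAA+ ATPase and is known as a susceptibility gene for moyamoya disease. It was at 8.11 and 8.57 with IgG and at 9.94 and 10.66 with the RBP antibody. The groups were apart by more than either pair differed within itself, and RBP array 2 was the highest. The difference was 1.96 ± 0.29 (SE; limma, adjusted p = 0.00772), or 3.88-fold. A second probe set for the gene gave 1.68 ± 0.24 (limma over all probe sets, adjusted p = 0.00767).

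Rnf170 followed closely. It encodes a ligase of the endoplasmic reticulum membrane that marks activated inositol trisphosphate receptors for degradation. It was at 5.74 and 5.57 with IgG and at 7.57 and 7.60 with the RBP antibody. The replicate arrays lay close together and the groups far apart. The difference was 1.93 ± 0.15 (SE; limma, adjusted p = 0.00558), or 3.81-fold. The second probe set gave 1.39 ± 0.14 (limma over all probe sets, adjusted p = 0.00571). Its IgG level was near background.

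**Figure D3:**
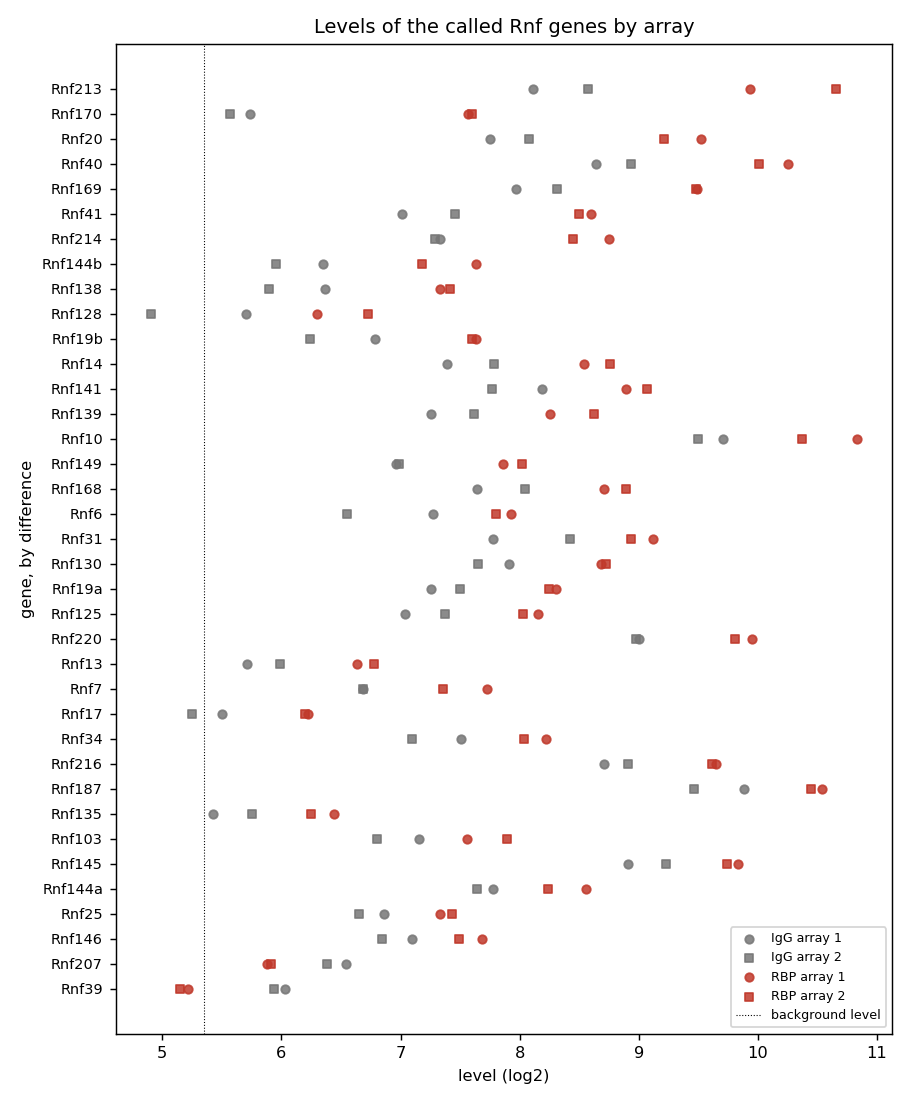
Each row is 1 of the 37 called Rnf genes, ordered by difference, and points give its log2 level on the IgG arrays (grey) and RBP arrays (red), with circles for array 1 and squares for array 2. The RBP points lie to the right of the IgG points for the upper 35 genes and to the left for Rnf207 and Rnf39.

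In the group of chromatin, DNA break and other nuclear Rnf genes, which also took in Rnf17, 7 of 12 were higher and 5 missed the threshold, beside 36.4% higher of all genes above background, where all 12 lay. The median difference was 0.90, and 0.57 with quantile normalization and 0.30 with the level trend removed. Rnf20 and Rnf40 encode the partners in the ligase that puts a single ubiquitin on histone H2B along transcribed genes. Rnf20 stood at 7.75 and 8.08 with IgG and at 9.52 and 9.22 with the RBP antibody. Rnf40 stood at 8.64 and 8.93 with IgG and at 10.25 and 10.01 with the RBP antibody. In neither gene did the groups overlap. Their differences were close to each other, at 1.45 ± 0.19 for Rnf20 and 1.35 ± 0.18 for Rnf40 (SE; limma, adjusted p = 0.00641 for each).

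Rnf168, Rnf169 and Rnf138, which act at DNA breaks, were among the called genes of the same group. Rnf168 writes the ubiquitin mark on histone H2A that recruits repair factors to a break, and Rnf169 reads that mark. Rnf169 was at 7.97 and 8.31 with IgG and at 9.49 and 9.48 with the RBP antibody, a difference of 1.34 ± 0.17 (SE; limma, adjusted p = 0.00623). For Rnf168 the levels were 7.64 and 8.04 with IgG and 8.71 and 8.90 with the RBP antibody, 0.96 ± 0.19 apart (SE; limma, adjusted p = 0.0165). Both genes had separate groups. Rnf138, which helps to trim broken DNA ends, was at 6.37 and 5.90 with IgG and at 7.33 and 7.41 with the RBP antibody, a difference of 1.24 ± 0.20 (SE; limma, adjusted p = 0.00921). Rnf8, which acts upstream of Rnf168, had no probe set with its symbol alone and was not analysed here.

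The remaining called genes of this group were Rnf6 (0.95 ± 0.26; limma, adjusted p = 0.0393) and Rnf17 (0.84 ± 0.16; limma, adjusted p = 0.0143). Rnf17 encodes a Tudor domain protein of germ cells, and its IgG level of 5.37 was near background. Rnf2 encodes RING1B, the catalytic subunit of polycomb repressive complex 1. It was at 8.98 and 8.73 with IgG and at 9.29 and 9.54 with the RBP antibody. The groups did not overlap, but the difference of 0.56 ± 0.17 missed the threshold (SE; limma, adjusted p = 0.0595). It passed with centring on the chemosensory genes (limma, adjusted p = 0.00891) and without IgG array 1 (limma, adjusted p = 0.0397), and it turned to -0.13 with the level trend removed.

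Rnf4 and Rnf111 are both ligases that recognise SUMO chains, and neither passed. Rnf4 was at 9.93 and 10.29 with IgG and at 10.38 and 10.40 with the RBP antibody, a difference of 0.28 ± 0.18 (SE; limma, adjusted p = 0.260). Rnf111, known as Arkadia in TGF-beta signalling, gave 0.34 ± 0.17 (SE; limma, adjusted p = 0.185). Both differences turned negative with quantile normalization, at -0.05 and -0.20, and with the level trend removed. The groups of Rnf4 were separated by less than the IgG arrays differed from each other. In the whole chromatin group, 4 of the 7 calls held without RBP array 1, and Rnf6, Rnf17 and Rnf168 missed the threshold (limma, adjusted p from 0.0695 to 0.167). Without RBP array 2, those 3 and Rnf138 missed it (limma, adjusted p from 0.0514 to 0.112). Quantile normalization ended the calls of Rnf6 and Rnf168 (limma, adjusted p = 0.211 and 0.200), and with the level trend removed Rnf17 and Rnf138 alone stayed called.

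The partners of these ligases gave a mixed picture. Of 9 genes that work with Rnf20 and Rnf40 in marking histone H2B, 4 were higher and 5 did not pass. All 9 lay above background, where 36.4% of all genes were higher. The median of the 9 was 0.46, and 0.0089 with quantile normalization. With the level trend removed it was -0.17, with 0 higher and 1 lower. Among the 9 were 6 genes for proteins of the PAF complex or bound to it, which brings the ligase to RNA polymerase. The 4 called were Ctr9 (1.5 ± 0.23; limma, adjusted p = 0.00820), Wdr61 (1.07 ± 0.26; limma, adjusted p = 0.0281), Leo1 (0.96 ± 0.27; limma, adjusted p = 0.0454) and Rtf1 (0.92 ± 0.15; limma, adjusted p = 0.00945; named after its value was seen). The other 2, Paf1 (0.46 ± 0.15; limma, adjusted p = 0.0719) and Cdc73 (0.42 ± 0.16; limma, adjusted p = 0.0980), did not pass. The partners outside the PAF complex did not pass either, with differences from -0.09 to 0.09. All 4 calls were lost with quantile normalization (limma, adjusted p from 0.0542 to 0.227) and with the level trend removed (0.0840 to 0.401). Leo1 missed it without either RBP array (limma, adjusted p = 0.185 and 0.114), Wdr61 without RBP array 2 or IgG array 1 (0.132 and 0.0734), and Rtf1 without RBP array 1 or 2 (0.0833 and 0.0675).

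Of 17 polycomb repressive complex 1 partners of Rnf2, 10 were higher, 1 was lower and 6 did not pass, with a median of 0.76. All 17 lay above background, where 36.4% of all genes were higher and 6.56% lower. The count was 4 higher with quantile normalization (median 0.31) and with the level trend removed (median 0.09), 5 without RBP array 1 and 3 without RBP array 2. On the lower side there was 1 with quantile normalization and 2 with the level trend removed. Pcgf5 (1.52 ± 0.14; limma, adjusted p = 0.00558), Kdm2b (1.5 ± 0.17; limma, adjusted p = 0.00560) and L3mbtl2 (1.5 ± 0.14; limma, adjusted p = 0.00558) belong to variant forms of the complex. Of the canonical subunits, Cbx2 (0.95 ± 0.16; limma, adjusted p = 0.0105) and Phc1 (1.01 ± 0.16; limma, adjusted p = 0.00934) were higher too. Both lost their calls with quantile normalization, with the level trend removed and without RBP array 2, and Cbx2 also without RBP array 1 (limma, adjusted p = 0.0733). Pcgf2, also a canonical subunit, was the lower one (-0.77 ± 0.21; limma, adjusted p = 0.0400). Its call held with the level trend removed (-1.11; limma, adjusted p = 0.0319). That call was lost without either RBP array (limma, adjusted p = 0.123 and 0.210) and without IgG array 1 (0.0616), with quantile normalization (0.0866) and after centring on the chemosensory genes (0.127). Ring1, the paralog of Rnf2, gave 0.30 ± 0.16 (limma, adjusted p = 0.201), and -0.29 with the level trend removed. Bmi1, the paralog of Pcgf2, gave 0.76 ± 0.25 (limma, adjusted p = 0.0648).

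Of 14 partners in DNA break signalling, 9 were higher and 5 did not pass, with a median of 0.97. All 14 lay above background, where 36.4% of all genes were higher. The differences ran from -0.30 to 1.94, and 2 of the 14 were negative. With quantile normalization 6 were higher and 1 lower (median 0.48). With the level trend removed 3 were higher and 1 lower (median 0.31). Herc2, a ligase that acts together with RNF8, differed by 1.94 ± 0.15 (SE; limma, adjusted p = 0.00558). The break-sensing kinase Atm differed by 1.81 ± 0.19 and the repair ligase Brca1 by 1.55 ± 0.16 (SE; limma, adjusted p = 0.00558 for each). Mdc1, the scaffold that brings RNF8 to a break, differed by 1.51 ± 0.21 (SE; limma, adjusted p = 0.00696). Trp53bp1, which binds the mark that RNF168 writes, differed by 1.38 ± 0.16 (SE; limma, adjusted p = 0.00568). All 5 also passed with quantile normalization and without either RBP array. With the level trend removed Mdc1 and Trp53bp1 did not (limma, adjusted p = 0.0609 and 0.0530).

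All 8 RING-between-RING genes had both RBP arrays above both IgG arrays, as had 54.7% of all genes above background, where all 8 lay, and a positive difference in every setting except Rnf144a with the level trend removed (-0.0049). Of these, 7 were higher, beside 36.4% of all genes above background, and 1 did not pass, with a median difference of 0.91. Rnf144b, which is induced by p53, led with levels of 6.35 and 5.95 with IgG and 7.63 and 7.18 with the RBP antibody, a difference of 1.25 ± 0.23 (SE; limma, adjusted p = 0.0123). Rnf19b, known from natural killer cells, was at 6.78 and 6.24 with IgG and at 7.64 and 7.60 with the RBP antibody, a difference of 1.11 ± 0.21 (SE; limma, adjusted p = 0.0150). Its RBP arrays lay close together while its IgG arrays were further apart.

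Rnf14, a coactivator of the androgen receptor that also acts on stalled ribosomes, was at 7.39 and 7.78 with IgG and at 8.54 and 8.76 with the RBP antibody. The difference was 1.06 ± 0.19 (SE; limma, adjusted p = 0.0126). Rnf31 encodes HOIP, the catalytic subunit of the complex that builds linear ubiquitin chains in NF-kappa-B signalling. It was at 7.78 and 8.42 with IgG and at 9.12 and 8.93 with the RBP antibody, with the IgG arrays further apart than the RBP arrays. The difference was 0.92 ± 0.24 (SE; limma, adjusted p = 0.0360). Rnf19a (0.89 ± 0.16), Rnf216 (0.82 ± 0.15) and Rnf144a (0.69 ± 0.17) were also called, and Rnf217 was not (0.63 ± 0.21; limma, adjusted p = 0.0709).

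Without RBP array 1 none of the 7 calls in this class held (limma, adjusted p from 0.0542 to 0.264), although 6 had an unadjusted p under 0.05, and without RBP array 2 only that of Rnf144b did. With quantile normalization Rnf144b alone stayed called, and with the level trend removed none did, 2 of the 7 having an unadjusted p under 0.05. The call of Rnf144a was also lost without IgG array 2 (limma, adjusted p = 0.0581).

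The partners of HOIP differed among themselves. Of 6 genes of linear ubiquitin signalling, 4 were higher and 2 did not pass, with a median of 1.07. All 6 lay above background, where 36.4% of all genes were higher. With the level trend removed 1 was higher and 1 lower (median 0.43). The enzymes that take linear chains apart and their adaptor were higher, namely Cyld (1.75 ± 0.16; limma, adjusted p = 0.00558), Spata2, which links CYLD to HOIP (1.39 ± 0.17; limma, adjusted p = 0.00585), and Otulin (1.23 ± 0.15; limma, adjusted p = 0.00571). These 3 also passed with quantile normalization and without either RBP array, and Cyld passed with the level trend removed. The other subunits of the chain-building complex did not pass. Rbck1 gave 0.56 ± 0.18 (limma, adjusted p = 0.0601), and -0.01 with the level trend removed. Sharpin gave -0.34 ± 0.22 (limma, adjusted p = 0.267), and was lower with the level trend removed (-1.05; limma, adjusted p = 0.0409). Rbck1 passed as higher without IgG array 2 (limma, adjusted p = 0.0184) and Sharpin as lower without IgG array 1 (0.0333).

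Of 9 Rnf genes for membrane ligases with a protease-associated domain facing the lumen, 4 were higher and 5 did not pass. Their median was 0.47. Among all genes 23.8% were higher, and 36.4% of those above background, where 7 of the 9 lay. With quantile normalization 3 were higher (median 0.42), and with the level trend removed 2 were (median 0.25). Rnf128, known as GRAIL for its part in T cell anergy, was at 5.70 and 4.90 with IgG and at 6.29 and 6.73 with the RBP antibody. The groups did not overlap, but the IgG arrays were far apart, and IgG array 2 was below background. The difference was 1.21 ± 0.30 (SE; limma, adjusted p = 0.0315). Rnf13, a ligase of endosomes and lysosomes, was at 5.71 and 5.99 with IgG and at 6.63 and 6.78 with the RBP antibody, a difference of 0.86 ± 0.17 (SE; limma, adjusted p = 0.0156). Rnf149 (0.96 ± 0.15; limma, adjusted p = 0.00824) and Rnf130 (0.92 ± 0.16; limma, adjusted p = 0.0113) completed the called genes. Rnf43, which removes Wnt receptors from the cell surface, gave 0.47 ± 0.16 (SE; limma, adjusted p = 0.0791). None of the 4 calls held without RBP array 1 (limma, adjusted p from 0.0552 to 0.0822) or without RBP array 2 (0.0752 to 0.132), although all 4 had an unadjusted p under 0.05 in both cases.

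The genes for ligases of the endoplasmic reticulum and other membranes had the median nearest 0 of the groups with a role, at 0.09. Of 16, 4 were higher and 12 did not pass, beside 23.8% of all genes higher and 36.4% of those above background. The differences of the 12 ran from -0.51 for Rnf182 to 0.67 for Rnf185, and 4 of the 16 were at or below background. Besides Rnf170 the called genes were Rnf139, Rnf103 and Rnf145. Rnf139 encodes TRC8, a multispanning ligase that takes part in sterol control and in the disposal of membrane proteins. It was at 7.25 and 7.62 with IgG and at 8.26 and 8.63 with the RBP antibody, a difference of 1.01 ± 0.21 (SE; limma, adjusted p = 0.0182). Rnf145, also a sterol-responsive ligase, differed by 0.72 ± 0.17 (limma, adjusted p = 0.0277) and Rnf103 by 0.75 ± 0.20 (limma, adjusted p = 0.0390). Rnf139, Rnf103 and Rnf145 lost their calls with quantile normalization (limma, adjusted p from 0.146 to 0.436). The same 3 lost them with the level trend removed (limma, adjusted p from 0.361 to 0.861). The group median was 0.26 and 0.04 in these settings. Without either RBP array Rnf170 alone of the 4 held its call, and Rnf103 also lost its call without IgG array 2 (limma, adjusted p = 0.0738).

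Rnf5 and Rnf185 are paralogs that mark misfolded proteins at the endoplasmic reticulum. Rnf5 was at 9.22 and 8.89 with IgG and at 9.06 and 9.11 with the RBP antibody. Both RBP arrays lay between the IgG arrays, and the difference of 0.02 ± 0.17 did not pass (SE; limma, adjusted p = 0.922). It was -0.50 with quantile normalization and -0.67 with the level trend removed, and -0.14 without IgG array 2. Rnf185 was at 5.37 and 5.82 with IgG and at 6.09 and 6.46 with the RBP antibody, a difference of 0.67 ± 0.22 that narrowly missed the threshold (SE; limma, adjusted p = 0.0675). It passed without IgG array 2 (limma, adjusted p = 0.0291), as did Rnf182 on the lower side (0.0233). The difference between the paralogs was not tested.

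Of 20 other genes of degradation at the endoplasmic reticulum, 9 were higher, 1 was lower and 10 did not pass. All 20 lay above background, where 36.4% of all genes were higher and 6.56% lower. The median of the 20 was 0.47. With the level trend removed it was -0.05, with 4 higher and 2 lower. Insig2, which ties ligases to sterol sensing, differed by 2.20 ± 0.17 (SE; limma, adjusted p = 0.00558). The channel protein gene Derl2 differed by 1.59 ± 0.15 and the adaptor gene Sel1l by 1.49 ± 0.16 (SE; limma, adjusted p = 0.00558 for each). Aup1, which recruits a conjugating enzyme to the membrane, was lower (-0.51 ± 0.15; limma, adjusted p = 0.0459). It stayed called as lower with quantile normalization and with the level trend removed (-1.03 in the latter; limma, adjusted p = 0.0211). Its call was lost without either RBP array (limma, adjusted p = 0.295 and 0.239), without IgG array 2 (0.0575) and after centring on the chemosensory genes (0.390).

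All 20 measured genes for ligases of signalling and the cytosol had a positive difference, except that Rnf166 and Rnf181 were negative with quantile normalization, and these, Rnf11, Rnf44, Rnf114 and Rnf126 with the level trend removed. Of the 20, all above background, 11 were higher, beside 36.4% of all such genes, and 9 did not pass, with a median of 0.74. With quantile normalization 3 were higher (Rnf135, Rnf213 and Rnf41; median 0.43) and with the level trend removed 2 were (Rnf135 and Rnf213; median 0.15). Besides Rnf213, Rnf41 led the group. Rnf41 encodes NRDP1, a ligase known to control the trafficking of cytokine receptors. It was at 7.01 and 7.46 with IgG and at 8.60 and 8.5 with the RBP antibody, higher by 1.31 ± 0.19 (SE; limma, adjusted p = 0.00776). The groups were separated by more than the IgG arrays differed from each other.

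Rnf10 ubiquitylates proteins of the small ribosomal subunit when ribosomes stall. It was at 9.71 and 9.50 with IgG and at 10.83 and 10.37 with the RBP antibody, a difference of 1.0 ± 0.20 (SE; limma, adjusted p = 0.0176). Rnf7 encodes RBX2, the RING subunit of a cullin ligase. It was at 6.69 and 6.68 with IgG and at 7.72 and 7.35 with the RBP antibody, higher by 0.85 ± 0.18 (SE; limma, adjusted p = 0.0185). The groups of both genes were separate. For Rnf7, 2 further probe sets also carried the symbol of a predicted gene and were left out.

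Rnf125 (0.89 ± 0.18; limma, adjusted p = 0.0164) and Rnf135 (0.75 ± 0.18; limma, adjusted p = 0.0276) encode ligases of the RNA sensor RIG-I with opposite effects on it. Rnf34 (0.83 ± 0.19), Rnf220 (0.89 ± 0.15), Rnf187, a coactivator of c-Jun (0.82 ± 0.19), and Rnf25 (0.62 ± 0.16) were called too. Rnf11, a member of the A20 complex that restrains NF-kappa-B, was at 7.31 and 6.90 with IgG and at 7.43 and 7.44 with the RBP antibody. It gave 0.33 ± 0.18 and did not pass (SE; limma, adjusted p = 0.213). It was 0.54 and passed without IgG array 1 (limma, adjusted p = 0.0403), and it was -0.23 with the level trend removed.

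Rnf123 encodes KPC1, a ligase for the cell cycle inhibitor Cdkn1b. It was at 7.83 and 8.85 with IgG and at 9.12 and 9.21 with the RBP antibody. The IgG arrays were further apart than the group means, and the difference of 0.83 ± 0.33 did not pass (SE; limma, adjusted p = 0.111). Without IgG array 2 it was 1.34 and passed (limma, adjusted p = 0.00918), and without IgG array 1 it was 0.32. After centring on the chemosensory genes it also passed (limma, adjusted p = 0.0494). Rnf115 also missed the threshold (0.72 ± 0.23; limma, adjusted p = 0.0660), and passed without IgG array 1 (0.0112) and after centring on the chemosensory genes (0.0121).

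Rnf126 and Rnf44 had high levels in both groups. Rnf126, which disposes of proteins that fail to reach a membrane, was at 10.45 and 10.47 with IgG and at 10.88 and 10.62 with the RBP antibody. The difference of 0.29 ± 0.16 did not pass (SE; limma, adjusted p = 0.204) and was -0.16 with the level trend removed. Rnf44 gave 0.37 ± 0.21 with overlapping groups (SE; limma, adjusted p = 0.227), and -0.18 with the trend removed. Of the 11 calls in the signalling group, those of Rnf213 and Rnf41 held without RBP array 1, and those of Rnf213, Rnf41 and Rnf10 held without RBP array 2. The others missed the threshold there (limma, adjusted p from 0.0510 to 0.288), and Rnf146 also did so without IgG array 2 (0.0648).

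The 15 genes to which no role was assigned had a median of -0.27, which was 0.01 with quantile normalization and 0.05 after centring on the chemosensory genes. Of these, 2 were higher, 2 were lower and 11 did not pass, beside 23.8% of all genes higher and 6.54% lower. Of the 15, 5 were at or below the background level. Rnf214 was at 7.33 and 7.29 with IgG and at 8.75 and 8.44 with the RBP antibody, a difference of 1.29 ± 0.17 (SE; limma, adjusted p = 0.00629). Rnf141 differed by 1.01 ± 0.19 (limma, adjusted p = 0.0150), and its second probe set gave 0.95 ± 0.23 (limma over all probe sets, adjusted p = 0.0293). Rnf141 was not called with quantile normalization, nor with the level trend removed (0.28; limma, adjusted p = 0.401). The call of Rnf141 was lost without either RBP array (limma, adjusted p = 0.0646 and 0.0938).

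Both lower genes lay in this group. Rnf39 was at 6.03 and 5.94 with IgG and at 5.22 and 5.15 with the RBP antibody. The replicates were close and the groups apart, and the RBP level was below background. The difference was -0.80 ± 0.14 (SE; limma, adjusted p = 0.0123). Rnf207, known from the heart, was at 6.54 and 6.38 with IgG and at 5.88 and 5.91 with the RBP antibody, a difference of -0.57 ± 0.15 (SE; limma, adjusted p = 0.0362). Both calls were lost without either RBP array, with quantile normalization and with the level trend removed, and that of Rnf207 also without IgG array 1 (limma, adjusted p = 0.0506) and after centring on the chemosensory genes (0.241).

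**Figure D4:**
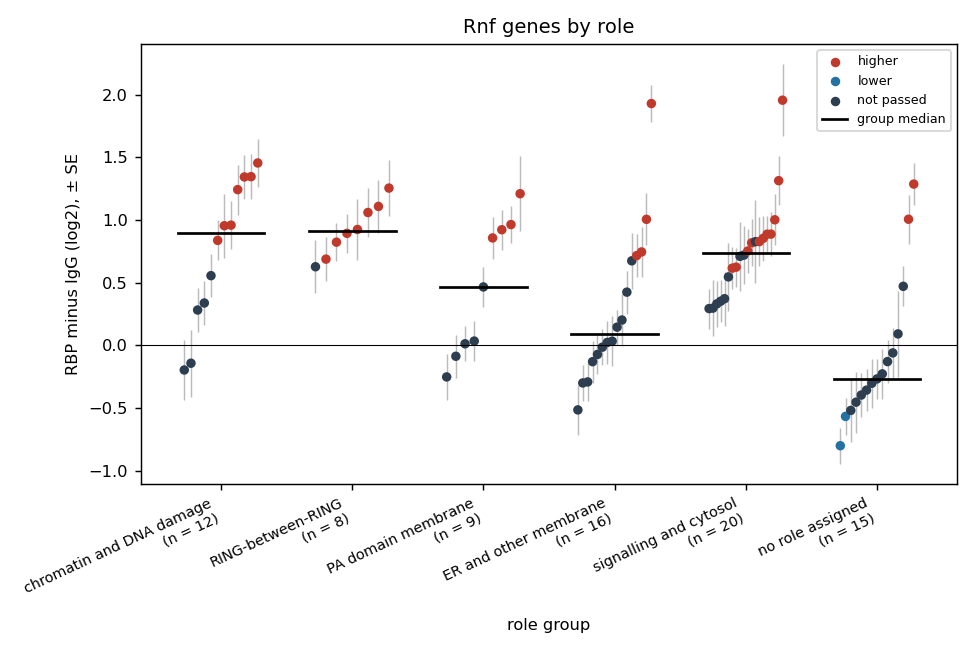
Points are the 80 Rnf genes in 6 role groups, with the RBP minus IgG difference (log2) and its SE on the vertical axis, colour by call and a bar at each group's median. The 8 RING-between-RING genes and the 20 signalling genes all lie above 0 in the reported fit, and the genes with no role assigned have a median of -0.27, which turns to 0.01 with quantile normalization.

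Of the Rnf genes, 5 had 2 probe sets each, and for Rnf146 and Rnf26 these did not give the same result. Rnf146 encodes a ligase that recognises poly-ADP-ribose and acts on axin. The probe set that stood for the gene was at 7.10 and 6.85 with IgG and at 7.69 and 7.49 with the RBP antibody, higher by 0.62 ± 0.17 (SE; limma, adjusted p = 0.0411). The other gave 0.05 ± 0.19 (limma over all probe sets, adjusted p = 0.862). For Rnf26, whose product organises endosomes from the endoplasmic reticulum, the probe set used was at 9.64 and 9.65 with IgG and at 9.81 and 9.77 with the RBP antibody, a gap of 0.15 ± 0.14 (SE; limma, adjusted p = 0.444). The other was at 9.34 and 8.74 with IgG and at 8.23 and 8.03 with the RBP antibody, a difference of -0.91 ± 0.23 (limma over all probe sets, adjusted p = 0.0356). The direction for Rnf26 therefore depended on the probe set, and it was also negative with quantile normalization and with the level trend removed.

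RING ligases that do not carry the Rnf name were counted in the same way. Of 67, 32 were higher, 34 did not pass and 1, the Notch regulator gene Dtx1, was lower (-0.59 ± 0.15; limma, adjusted p = 0.0321; named after its value was seen). Among all genes 23.8% were higher, and 36.4% of those above background, where 66 of the 67 lay. Dtx1 stayed called as lower with the level trend removed (-0.66; limma, adjusted p = 0.0468). The call of Dtx1 was lost without either RBP array (limma, adjusted p = 0.269 and 0.154), with quantile normalization (0.116) and after centring on the chemosensory genes (0.214). Over the 67 the median was 0.67. With quantile normalization 15 were higher (median 0.33), and with the level trend removed 8 were higher and 2 lower (median 0.09). Without RBP array 1 there were 15 higher, and without RBP array 2 there were 17. Pja2, a ligase that acts on the regulatory subunits of protein kinase A, differed by 1.87 ± 0.16 (SE; limma, adjusted p = 0.00558). Hltf, which helps stalled replication forks, differed by 1.78 ± 0.23 (limma, adjusted p = 0.00613). Marchf8, which takes the transferrin receptor and other surface proteins to degradation, differed by 1.77 ± 0.19 (limma, adjusted p = 0.00558). These 3 held their calls with quantile normalization, with the level trend removed and without either RBP array. No test of the Rnf genes against these genes or against all genes was made.

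Over whole arrays the median of 35556 probe sets was 5.85 and 5.93 with IgG and 5.57 and 5.62 with the RBP antibody, and the interquartile range was 2.91 and 2.87 against 3.73 and 3.61. All 10 markers of erythroid progenitors were above background, with a mean level of 9.70 and 9.75 with IgG and 10.17 and 10.31 with the RBP antibody. Of the 10, 3 (Epor, Kit and Tal1) were higher, beside 36.4% of all genes above background. Markers of other cells were also measured, and their counts stand beside 23.8% of all genes higher and 6.54% lower. Of 8 granulocyte and mast cell markers, 4 were above background and 2 (Elane and Ngp) were lower. Ngp had a mean level of 4.75, below background. The mean level of the 8 was 7.60 and 6.82 with IgG and 7.0 and 6.41 with the RBP antibody. Of 9 macrophage markers 2 (Cd68 and Marco) were lower, of 7 endothelial and stromal markers 2 (Pdgfrb and Tek) were higher, of 5 megakaryocyte markers 1 (Gp9) was higher, and of 8 hepatocyte and 6 lymphoid markers limma called none (1 of each at an unadjusted p under 0.05). These lists did not move 1 way. Both RBP arrays lay above both IgG arrays for 3 macrophage markers and below them for 4, beside 37.4% and 36.2% of all genes. For endothelial and stromal markers these counts were 4 and 2. Of the called markers, Cd68 (-1.59 ± 0.18) and Tek (1.92 ± 0.16) were the ones that held their calls whichever array was left out. Lymphoid markers had a mean level of 7.42 and 6.56 with IgG and 7.38 and 6.75 with the RBP antibody, hepatocyte markers 6.16 and 5.62 against 6.18 and 5.66, and macrophage markers 5.75 and 5.52 against 5.64 and 5.37. In these lists and the granulocyte list the mean was higher on array 1 than on array 2 of each antibody. The part of these cells in the Rnf differences was not tested.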

How the data were processed

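The deposited values are log2 levels per probe set. RMA, through affy, made them in the authors' hands, per the submitters' processing notes. Tool versions, any filter and the background step were not given in the sources used here. Of 35556 probe sets, 21789 carried 1 gene symbol in the platform annotation, 1621 several and 12146 none. Names were checked against RefSeq genes of GRCm38.p6, in which 21698 Entrez identifiers were found and 0 symbols changed.

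The test was limma 3.58.1 under R 4.3.3 (lmFit, eBayes), two-sided, over 19938 genes with no filter on level. Residual degrees of freedom were 2 and prior degrees of freedom 3.76. The median standard error of a difference was 0.17, which the number of arrays limits. Alternatives were quantile normalization, centring on 1224 chemosensory genes, removal of a loess trend (span 0.3) on level, a background filter, the mean over probe sets, trend and robust options, the replicate block and leaving out each array. The fit was tested on simulated data.

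The Rnf genes, role groups, partner lists and alternatives were chosen with earlier results of these data known. The rule for naming took the Rnf genes called lower, the 16 called higher with the largest difference, the 5 with the highest mean level, a fixed set by role, and up to 3 called genes per partner list. The remaining called Rnf genes and Rnf217, Rnf182, Rnf115, Rnf26, Rnf43, Rnf114, Rnf166, Rnf181, Rtf1, Paf1, Cdc73, Cbx2, Phc1, Dtx1, the called cell markers, Pcgf2, Aup1, Sharpin, Rbck1, Ring1, Bmi1, Mdc1 and Trp53bp1 were named after their values were seen.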

Additional observations from a re-analysis of the deposited data

How the results depend on the processing

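With quantile normalization limma called 15 Rnf genes higher and 0 lower (3 lower at an unadjusted p under 0.05), with a median of 0.34. Of all genes 11.1% were then higher and 2.77% lower. After centring on chemosensory genes 1 Rnf gene was lower, beside 1.59% of all genes, and the Rnf median was 0.90. With the level trend removed 7 Rnf genes were higher and 0 lower (5 lower at an unadjusted p under 0.05), beside 5.63% and 5.09% of all genes. The Rnf median was then 0.15. Among genes above background, with the trend kept, the Rnf median was 0.71, beside 0.40 over all such genes. Leaving out 1 array gave 8 to 40 higher, 0 to 4 lower (0 without either RBP array, with 1 and 2 at an unadjusted p under 0.05) and medians of 0.50 to 0.58; without an RBP array the variance comes from the IgG pair. The replicate block gave 42 higher and 3 lower and lost no call; deviations of same-numbered arrays correlated at 0.26 across genes, but the labels give only a number. Among the genes named in the text, differences that changed sign were, with quantile normalization, Rnf4 (-0.049), Rnf5 (-0.50), Rnf111 (-0.20), Rnf26 (-0.30), Rnf166 (-0.13), Rnf181 (-0.24) and Paf1 (-0.077). With the trend removed they were Rnf126 (-0.16), Rnf4 (-0.25), Rnf44 (-0.18), Rnf2 (-0.13), Rnf5 (-0.67), Rnf11 (-0.23), Rnf111 (-0.37), Rnf144a (-0.0049), Rnf26 (-0.47), Rbck1 (-0.012), Ring1 (-0.29), Tal1 (-0.091), Rnf166 (-0.35), Rnf181 (-0.42), Rnf114 (-0.15), Paf1 (-0.25) and Cdc73 (-0.17). With the mean over probe sets Rnf26 was -0.38, and Rnf5 ran from -0.14 to 0.19 when an array was left out. The cause was not tested. Trend and robust options ended the calls of Rnf25, Rnf103 and Rnf146 (limma, adjusted p from 0.0504 to 0.0622), and the mean over probe sets that of Rnf146 (0.125). Of 1054 comparisons of a named gene with an alternative, 801 kept direction and call, 190 lost the call, 37 gained it and 26 changed sign. Levels near background limit the size of a difference.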
